A study of Mus musculus with 285 samples.

Results

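A set of 9 genes of myelin and of the oligodendrocyte lineage were examined: Mbp, Mobp, Mog, Mag, Cnp, Cldn11, Mal, Olig1 and Olig2. They were chosen by name from the 19962 genes of a whole-transcriptome probe panel. The panel was read on brain sections by digital spatial profiling (GeoMx DSP), in which barcoded probes are released by light from chosen areas of a section and then counted by sequencing. Of the 9 genes, 8 rose above the limit of quantification often enough to be tested, among 10020 tested genes. On GRCm38.p6 the members lie on separate chromosomes except for Olig1 and Olig2, which are neighbours on chromosome 16 (91269769 to 91271939 and 91225550 to 91228677). Mobp spans 120149742 to 120181488 on chromosome 9, Mbp 82475091 to 82585637 on chromosome 18, Cnp 100574909 to 100591875 on chromosome 11 and Cldn11 31149920 to 31164326 on chromosome 3. Mog lies at 37010740 to 37023398 on chromosome 17, Mag at 30899175 to 30914922 on chromosome 7 and Mal at 127633226 to 127656695 on chromosome 2. The member that could not be tested was Mal, which encodes a proteolipid of compact myelin and was above the limit in 0 of 225 libraries.

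The animals were 15 female C57BL/6J mice, given as 9 weeks old in the deposited design, all tumor-free, with 3 mice in each of 5 groups. CTRL mice were sham-irradiated. The other groups received whole-brain irradiation at 10 Gy per fraction, as 1 fraction (1x10Gy) or as 3 fractions 48 h apart (3x10Gy), either at the conventional dose rate of 0.09 Gy/s (CONV) or at 5.6e+06 Gy/s in 1 pulse (FLASH). Brains were taken 24 h after the last fraction, fixed and embedded in paraffin. Each mouse contributed regions of interest in the cortex and in CA1, CA3, the dentate gyrus (DG) and the stratum oriens (SO) of the hippocampus. A region of interest was divided by antibody staining into neurons (NeuN), astrocytes (GFAP, hippocampus), vessels (CD31, cortex) and the remaining unstained area. No antibody marked oligodendrocytes, so their transcripts were read in segments chosen for other cells, and a segment with fewer oligodendrocytes cannot be told apart from one with less RNA per oligodendrocyte. Mice are named here by group and a letter, and the sections lay on 5 slides with 3 mice on each. Slides 1 and 2 each held CTRL, FLASH 3x10Gy and CONV 3x10Gy mice. Slide 3 held CONV 1x10Gy, FLASH 3x10Gy and CONV 3x10Gy mice. Slide 4 held CTRL, FLASH 1x10Gy and CONV 1x10Gy mice, and slide 5 only FLASH 1x10Gy and CONV 1x10Gy mice. CTRL and 1x10Gy mice thus shared only slide 4.

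Oligodendrocytes wrap axons in myelin, the layered membrane that speeds conduction. Mbp (myelin basic protein) and Mobp (myelin-associated oligodendrocytic basic protein) are small basic proteins that hold the cytoplasmic faces of the membrane together, and their messenger RNAs are carried out into the processes of the cell. Cnp is a phosphodiesterase of non-compact myelin, Cldn11 forms the tight junctions between myelin layers, Mag lies on the inner membrane that faces the axon, and Mog lies on the outermost surface of the sheath. Olig1 and Olig2 are the basic helix-loop-helix transcription factors that specify the lineage, and they are expressed in precursors as well as in mature cells. In the hippocampus, myelinated fibers run densely in the alveus, the sheet of white matter next to the stratum oriens.

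The sequences upstream of 4 members are shown because Mobp, Cnp and Cldn11 shared a regional pattern that Olig2 lacked. Each run holds the 250 bases before an annotated start on the plus strand, from RefSeq on GRCm38.p6. For Cnp that start lies a little inside the span given above, so the end of its window overlaps the gene's first bases. Mobp lies at chr9:120149492-120149741, Cnp at chr11:100574689-100574938, Cldn11 at chr3:31149670-31149919 and Olig2 at chr16:91225300-91225549. Capitals mark the searched motifs, which were ACAAAG and AACAAT (forms of the SOX core) and CAGCTG (an E-box of the kind bound by helix-loop-helix factors), on either strand.
Mobp: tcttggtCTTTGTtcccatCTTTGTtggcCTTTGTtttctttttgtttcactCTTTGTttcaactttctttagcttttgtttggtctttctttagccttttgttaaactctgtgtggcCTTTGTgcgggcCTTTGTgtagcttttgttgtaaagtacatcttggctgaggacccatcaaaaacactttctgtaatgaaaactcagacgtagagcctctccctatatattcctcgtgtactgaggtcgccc
Cnp: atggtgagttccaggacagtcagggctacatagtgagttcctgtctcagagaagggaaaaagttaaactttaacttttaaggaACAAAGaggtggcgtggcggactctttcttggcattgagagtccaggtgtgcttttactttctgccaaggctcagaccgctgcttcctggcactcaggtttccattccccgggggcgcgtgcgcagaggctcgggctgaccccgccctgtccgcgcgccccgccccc
Cldn11: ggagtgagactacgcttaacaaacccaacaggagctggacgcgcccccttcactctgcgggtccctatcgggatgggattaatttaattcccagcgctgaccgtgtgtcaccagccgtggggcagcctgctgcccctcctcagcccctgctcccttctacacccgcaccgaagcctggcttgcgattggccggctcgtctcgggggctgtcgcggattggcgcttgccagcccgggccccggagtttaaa
Olig2: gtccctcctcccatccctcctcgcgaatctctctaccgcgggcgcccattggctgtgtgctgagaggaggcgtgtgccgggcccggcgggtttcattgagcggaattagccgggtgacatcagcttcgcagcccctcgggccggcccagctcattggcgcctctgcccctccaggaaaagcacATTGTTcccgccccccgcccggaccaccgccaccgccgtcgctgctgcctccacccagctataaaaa
The Mobp window held 6 copies of ACAAAG, all written as CTTTGT on the strand shown. It was the only 1 of 32851 RefSeq promoter windows of this length with as many (0.00304%), whereas 16.5% of the windows held at least 1. Cnp had 1 ACAAAG and Olig2 had 1 AACAAT, a motif present in 9.42% of windows. None of the 3 motifs was found in the Cldn11 window, and CAGCTG, present in 13% of all windows, was found in none of the 4. Such letters are a description of the sequence, not of a bound site.

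Libraries differed widely in depth and in background. After filters on read quality and signal, 225 of 285 libraries were kept: 87 of 90 neuron, 30 of 60 astrocyte, 101 of 105 remaining-area and 7 of 30 vessel libraries. Gene counts per kept library had medians of 714453 in neurons, 434522 in astrocytes, 3.08e+06 in the remaining area and 214296 in vessels. Background, taken as the mean count of 209 negative probes times the number of genes, amounted to a median of 56.7% of the counts in neurons, 85.0% in astrocytes, 94.0% in the remaining area and 75.8% in vessels. The fold changes given are those of all counts, background included. Marker levels were compared between segment kinds. Summed neuronal marker levels were 2000 CPM (counts scaled to a common library total) in neurons against 649 in astrocytes, astrocyte markers were 1002 CPM in astrocytes against 492 in neurons, and endothelial markers were 749 CPM in vessels against 318 in neurons and 523 in astrocytes. Vessel segments also carried astrocyte markers at 829.25 CPM (450 to 1034, a range that overlapped with the 763 to 1569 CPM of astrocytes) and neuronal markers at 946 CPM. None of 9 microglial markers was above the limit in most libraries of any segment kind.

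The members were detected unevenly. Olig2 was above the limit of quantification in 209 of the 225 kept libraries (92.9%), Mobp in 198 (88.0%), Olig1 in 153 (68.0%) and Mbp in 145 (64.4%). In each library the limit was the negative probes' geometric mean, multiplied by the square of their geometric standard deviation, with a floor of 2 counts. Cnp (75 libraries), Cldn11 (55), Mog (41) and Mag (19) were above it less often. Relative to the mean negative probe, Mobp reached 23.7 in its highest library, Mbp 7.53, Cnp 7.11 and Cldn11 5.50.

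Mobp was highest in the CA3 astrocyte segments. Its level there ranged from 158 to 1040 CPM with a median of 840 over 10 libraries, whereas it ranged from 67.7 to 120 CPM (median 101) in 6 CA1 astrocyte libraries. The CA3 and CA1 ranges did not overlap. The next segments in order were SO astrocytes (median 281 CPM, 5 libraries), the CA3 remaining area (224), the SO remaining area (191) and CA3 neurons (186), and the ranges of these neighbours overlapped. At the lower end, CA1 neurons (89.7), SO neurons (89.6), the CA1 remaining area (84.4) and DG neurons (82.6) overlapped as well. The 2 lineage factors had a flatter profile. Median Olig2 levels lay between 72.6 CPM in vessels and 107 in DG neurons, and median Olig1 levels between 50.5 and 99.5 CPM. The plot of levels by segment and region shows this contrast.

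**Figure D1:**
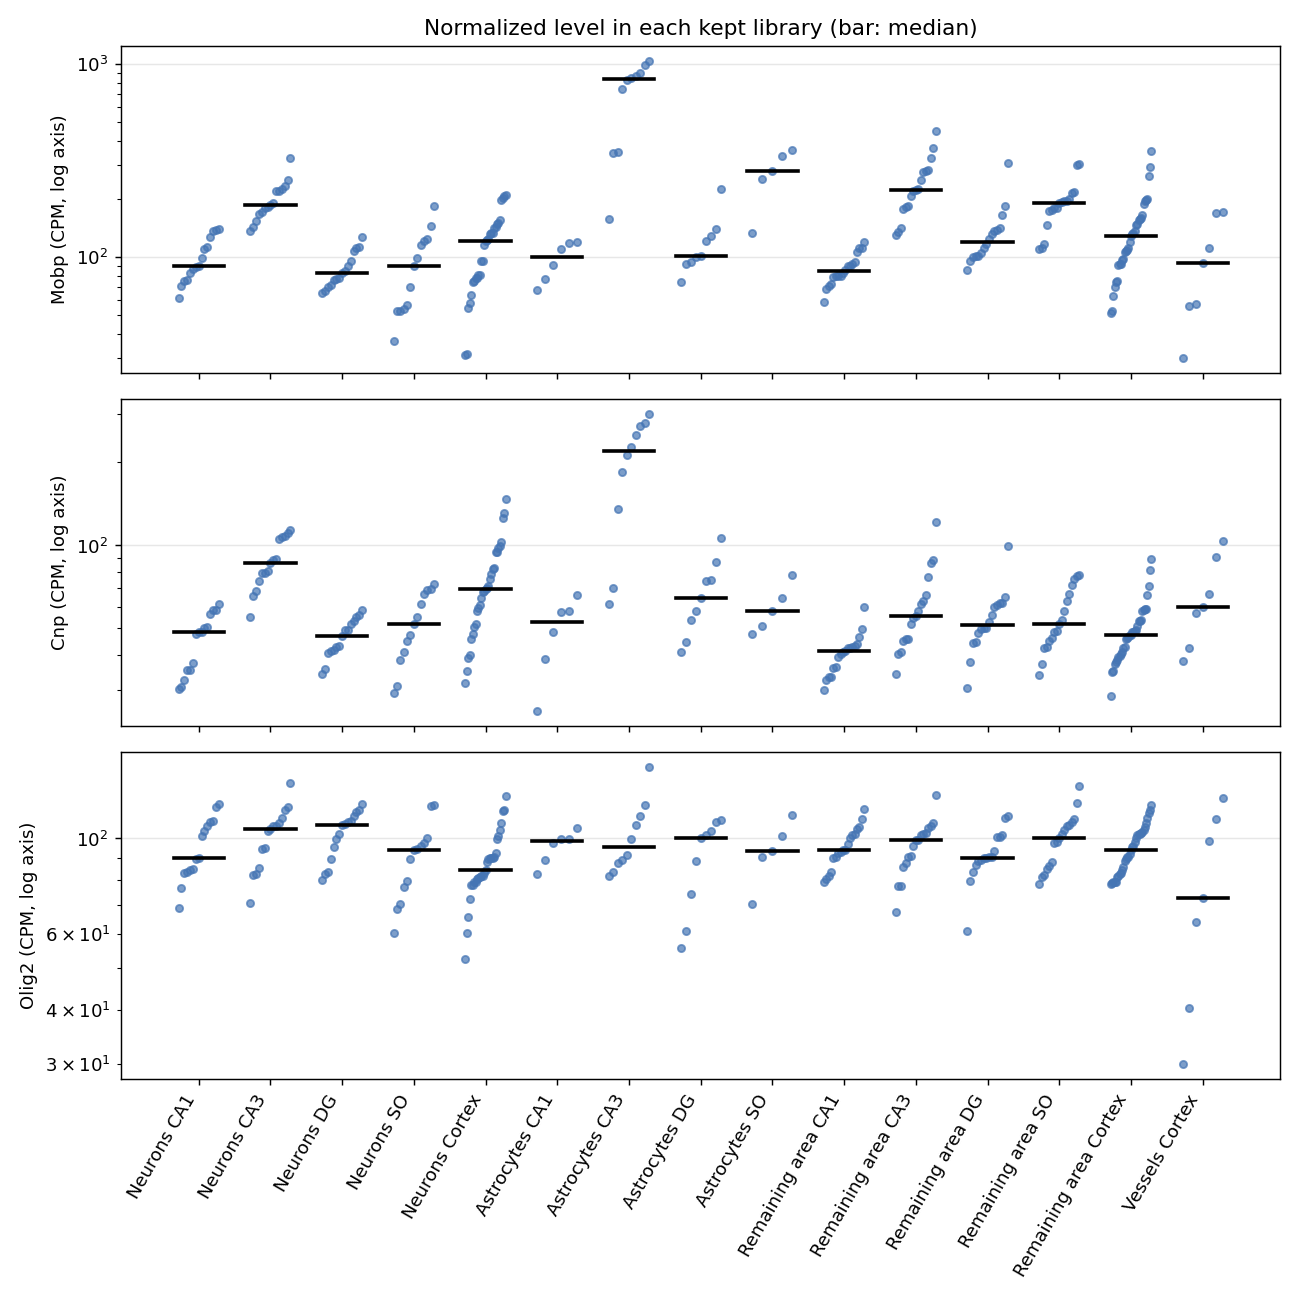
Normalized level (CPM, log axis) of Mobp, Cnp and Olig2 in each of the 225 kept libraries, by segment kind and region; each point is 1 library, sorted from low to high within its column, and bars are medians. Mobp and Cnp stood highest in CA3 astrocytes (medians 840 and 220 CPM), whereas the column medians of Olig2 lay between 72.6 and 107 CPM.

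Among neurons, CA3 was compared with CA1 in the same 15 mice, with mouse as a block. Genes of compact and non-compact myelin were higher in CA3 and Olig2 was not called. Mobp in CA1 neurons ranged from 61.4 to 139 CPM (median 89.7), and in CA3 neurons from 137 to 327 CPM (median 186). The ranges overlapped only between 137 and 139 CPM, and every one of the 15 mice was higher in CA3, by 0.30 to 1.75 on the log2 scale. The fitted log2 fold change of Mobp was 0.93 ± 0.09 (SE; edgeR adjusted p = 8.96e-22). Cnp (0.86 ± 0.09, adjusted p = 8.76e-17, higher in 14 of 15 mice) and Cldn11 (0.80 ± 0.10, adjusted p = 1.17e-12, higher in 15 of 15) changed by similar amounts. In all, 7 of the 8 tested members were higher and 0 lower, where 11.1% of all tested genes were higher and 23% were called in either direction. The smaller differences were Mag (0.34), Mog (0.29), Mbp (0.27) and Olig1 (0.25), with adjusted p from 0.0125 to 0.0348. Olig2 differed by 0.07 ± 0.08 (adjusted p = 0.616), and 7 of 15 mice were higher. Calls for Mobp, Cnp and Cldn11 held under all alternatives tried, whereas those for Mag, Mog, Mbp and Olig1 were each lost under at least 1. Neuronal markers moved in the same comparison, with 6 of 9 higher and a median of 0.86, while 1 of 7 tested astrocyte markers did; their part in the result was not tested.

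In astrocyte segments the same regional contrast was larger. This comparison and that of the remaining area were added after the levels had been seen. In all, 6 mice had both a CA3 and a CA1 astrocyte library, and 6 members were higher in CA3 where 0.739% of all tested genes were called. Cnp ranged from 61.6 to 301 CPM (median 220) in CA3 and from 25.1 to 65.9 CPM (median 52.9) in CA1. The lowest CA3 values of Cnp, 61.6 and 70.1 CPM, belonged to CONV 1x10Gy mice C and B. The log2 fold change of Cnp was 1.99 ± 0.16 (adjusted p = 4.70e-14), that of Cldn11 was 1.97 ± 0.23 (adjusted p = 4.77e-05) and that of Mbp was 1.80 ± 0.17 (adjusted p = 2.16e-09). Mobp had the highest fold change, 2.80 ± 0.35, with an adjusted p of 0.0468. It was higher in CA3 in 6 of 6 mice, by 0.79 to 3.46. With each mouse left out in turn it stayed between 2.66 and 3.13, but it was called only in the refit without CONV 1x10Gy mouse C, where it was 3.13. Mog (0.72) and Mag (0.70) were also higher. Without the mouse block 3 members were called, and Cnp, Cldn11 and Mag were not among them (adjusted p = 0.0580, 0.106 and 0.0739). Of the neuronal markers 1 of 9 was higher, and of the tested astrocyte markers 0 of 7.

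In the remaining area, 4 members were higher in CA3 than in CA1 of the same 15 mice, where 9.09% of all tested genes were called. Mobp rose from a median of 84.4 CPM (58.5 to 119, 18 libraries) in CA1 to 224 CPM (131 to 450, 17 libraries) in CA3. These ranges did not overlap. The log2 fold changes were 1.39 ± 0.08 for Mobp (adjusted p = 3.54e-09), 0.75 ± 0.05 for Mbp (adjusted p = 9.62e-19), 0.54 ± 0.06 for Cnp and 0.34 ± 0.08 for Cldn11. Mag, Mog, Olig1 and Olig2 differed by 0.09 or less, and none of them was called. Of the neuronal markers, 7 of 9 were higher in the same comparison, with a median of 0.72, and their part was not tested. The plot of CA3 over CA1 sets the 3 segment kinds side by side.

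**Figure D2:**
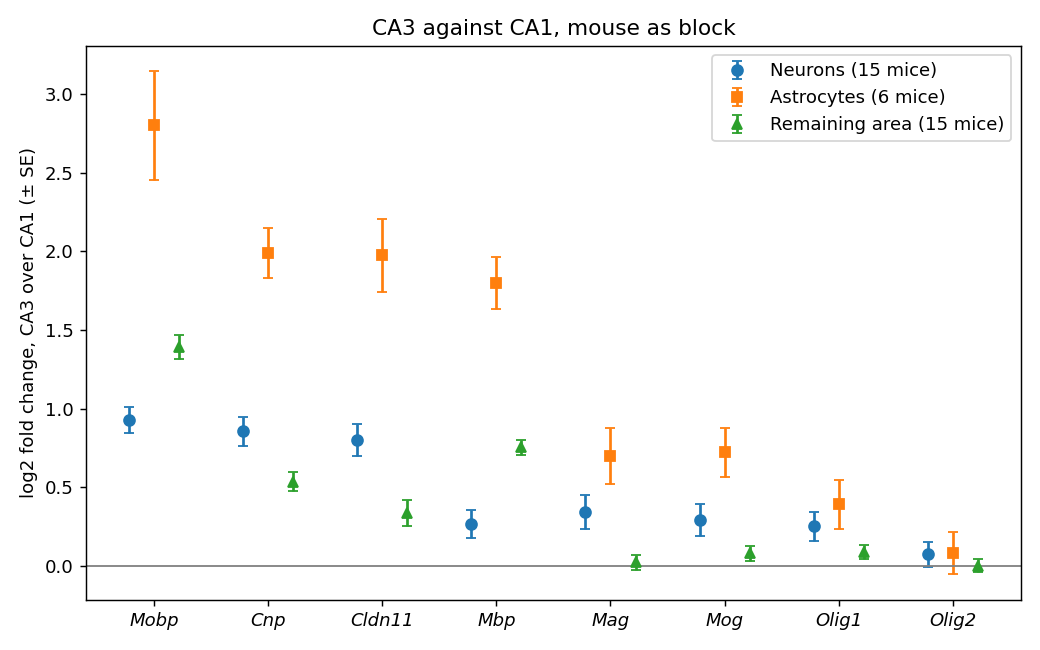
Log2 fold change of CA3 over CA1 for the 8 tested members in neurons (15 mice), astrocytes (6 mice) and the remaining area (15 mice), with SE as bars. Mobp, Cnp, Cldn11 and Mbp lay above 0 in all 3 kinds, and Olig2 was not called in any of them (0.07, 0.08 and -0.00).

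SO was compared with CA1 within each segment kind, and the differences between kinds were not tested. In neurons, SO and CA1 differed in 0 of 8 members (13 mice, edgeR; 0 at an unadjusted p under 0.05), where 0.02% of all tested genes were called. In the remaining area, Mobp was higher in SO in 14 of 14 mice, with 110 to 304 CPM (median 191) in SO against 58.5 to 119 CPM in CA1. The log2 fold change was 1.11 ± 0.09 (adjusted p = 1.15e-06), and Mbp (0.64 ± 0.05), Cnp (0.48 ± 0.06) and Cldn11 (0.31 ± 0.06) were higher too, 4 members where 6.81% of all genes were called. In astrocytes, 4 mice had both regions, and SO Mobp levels were 134, 254, 333 and 360 CPM in CONV 1x10Gy mouse C, FLASH 3x10Gy mouse A, CONV 3x10Gy mouse A and FLASH 3x10Gy mouse B. Their CA1 levels were 91.3, 118, 67.7 and 77.4 CPM, lower in each of the 4 mice. Mobp differed by 1.52 ± 0.21 (adjusted p = 5.96e-04) and was the single member called, where 0.14% of all genes were. That call was lost with DESeq2 (adjusted p = 0.995) and without the mouse block (adjusted p = 0.0767).

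DG neurons did not share the CA3 pattern. Against CA1 neurons in 15 mice, Mbp was higher by 0.42 ± 0.09 (adjusted p = 1.48e-05; 14 of 15 mice), Olig2 was higher by 0.18 ± 0.08 (adjusted p = 0.0481) and Mobp was lower by 0.21 (adjusted p = 0.0206). These 3 calls compare with 34.3% of all tested genes. Mbp ranged from 45.9 to 99.6 CPM in DG and from 26.3 to 93.3 CPM in CA1, so the ranges overlapped widely. The calls for Mobp and Olig2 were lost without the mouse block (adjusted p = 0.150 and 0.154) and with DESeq2 (0.137 and 0.232).

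Cortical neurons had slightly higher levels of 6 members than the summed hippocampal neurons of the same 15 mice. Cnp was higher by 0.33 ± 0.11, Mag by 0.32 ± 0.07, Mog by 0.27 ± 0.09, Cldn11 by 0.22 ± 0.07, Olig1 by 0.20 ± 0.06 and Mbp by 0.16 ± 0.06. Olig2 was lower by 0.17 (adjusted p = 0.0147). These 6 higher and 1 lower calls compare with 13.8% and 13.6% of all tested genes. Mobp differed by -0.11 ± 0.16 (adjusted p = 0.700). Its cortical values ran from 31.04 to 210 CPM over 29 libraries.

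Between segment kinds of the hippocampus, astrocytes held more of 7 members than neurons did in 10 mice. Mobp was higher by 1.21 ± 0.08 (adjusted p = 2.43e-17), Cnp by 0.73 ± 0.12, Mbp by 0.69 ± 0.11, Mog and Cldn11 by 0.59 ± 0.08 each, Mag by 0.57 and Olig1 by 0.41. The share of all tested genes called was large here: 36.7% were higher in astrocytes and 72.7% were called in either direction. Negative-probe background also differed, with a median of 85.0% of counts in kept astrocyte libraries against 56.7% in neurons. Its part in these differences was not tested. Mag was above its limit in only 7 of 30 astrocyte and 12 of 87 neuron libraries. Olig2 differed by -0.10 ± 0.07 (adjusted p = 0.195). For Mbp and Mobp, much of the difference lay in CA3. Within CA3 alone, Mbp was higher by 1.51 ± 0.11 and Mobp by 1.71 ± 0.14 (58.3% of all genes called). With CA3 left out, Mbp differed by 0.00 ± 0.09 (adjusted p = 0.997) and Mobp by 0.53 ± 0.09 (adjusted p = 1.21e-07). There 6 of the 8 members were higher, where 67.8% of all genes were called in either direction. Most of those calls were lost with the negative probes subtracted, and Cldn11 reversed. The fits of CA3 alone and without CA3 were added after the regional levels had been seen.

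In the hippocampus the remaining area was compared with both stained kinds. Against neurons in 15 mice, Olig1 (0.43 ± 0.05), Mobp (0.39 ± 0.07), Mog (0.30 ± 0.04), Mag (0.30 ± 0.06) and Mbp (0.19 ± 0.05) were higher and Cnp was lower by 0.23, where 87.4% of all tested genes were called. With the negative probes subtracted, the median of all genes fell by 1.08 in this comparison, and Mag turned to -1.89. Against astrocytes in 10 mice, 6 members were lower (19% of all genes called, 10.7% lower), led by Cnp, which fell by 1.10, and Mobp, which fell by 1.04. In the cortex, the remaining area had less Cnp (-0.62 ± 0.07) and Cldn11 (-0.31 ± 0.08) and more Mobp (0.22 ± 0.06), Olig1 (0.24 ± 0.05) and Olig2 (0.12 ± 0.04) than neurons, where 83.5% of all genes were called. Vessels differed from neurons in 0 of 8 members (7 mice, edgeR; 15% of all genes called), and 1 member had an unadjusted p under 0.05, Mbp at -0.44 ± 0.20 (adjusted p = 0.126). Vessel libraries held few reads, and Mobp counts per mouse there ran from 1 to 57.

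Of a list of 25 other genes of the mature oligodendrocyte, 12 could be tested. In CA3 over CA1 neurons 7 were higher and 1 lower, with a median of 0.31 against -0.02 over all genes. Trf (transferrin) was higher by 0.51 ± 0.10 and Sox10, a transcription factor of the lineage, by 0.41 ± 0.12. In astrocyte segments 5 were higher, among them Trf by 1.58 ± 0.15, and in the remaining area 3 were, among them Trf by 0.30 ± 0.05. The members' own medians were 0.32, 1.26 and 0.21. Of 9 precursor genes only Pdgfra, the growth factor receptor of precursors, and Neu4 could be tested, and neither was called in CA3 over CA1 of any segment kind.

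Levels of several myelin members followed each other from library to library, and those of Olig2 did not follow Mobp. Across 30 astrocyte libraries, log2 Mobp correlated with Cldn11 (r = 0.93), Mbp (0.92) and Cnp (0.89), and across 101 remaining-area libraries with Mbp (0.88) and Cnp (0.80). In 87 neuron libraries r was 0.72 with Cnp, 0.71 with Cldn11 and 0.29 with Mbp. Mobp and Olig2 correlated at -0.01 in neurons, 0.10 in astrocytes and -0.21 in the remaining area, and Mobp and Olig1 at 0.29, 0.67 and 0.19. These libraries share mice, regions and background, and the values describe them only. Within a region of interest, Mobp of the astrocyte segment followed that of the remaining area (r = 0.90, 29 regions), and neurons followed the remaining area more closely in the cortex (0.83, 29 regions) than in the hippocampus (0.60, 56 regions), a difference that was not tested. Among genes outside the members, those most like the members' mean log2 level across the 225 libraries included Trf (r = 0.81), Cryab (0.70), Qdpr (0.68), Tspan2 (0.67), Qk (0.62), Septin4 (0.60), Aspa (0.59), Plekhb1 (0.59) and Fth1 (0.58).

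Irradiation was compared across the 5 groups on counts summed per mouse, with slide in the fit and, beside it, without. With slide, 5 of 264 member tests were called over 33 contrasts in 6 compartments (1.89%, against 1.22% of all gene tests). Without slide, 6 of 288 were called over 36 contrasts (2.08%, against 0.069%). In neurons of the single subregions, 0 of 224 member tests were called with either fit (edgeR; 20 at an unadjusted p under 0.05 with slide and 7 without), where 1.06% and 0.000713% of all gene tests were. All 5 calls with slide were higher values in FLASH 1x10Gy than in CONV 1x10Gy, in the hippocampus. No member was called with slide in a comparison of FLASH 3x10Gy, CONV 3x10Gy or all irradiated mice with CTRL. Contrasts that share CTRL or CONV mice are not independent of each other. In hippocampal neurons with slide, FLASH 1x10Gy differed from CTRL by 0.44 ± 0.17 for Mbp (adjusted p = 0.0887) and by 0.38 ± 0.20 for Mobp (adjusted p = 0.212). Of all tested genes, 6.44% were higher and 5.32% lower. Mean Mbp levels were 79.7 CPM in FLASH 1x10Gy and 68.9 in CTRL. Mean Mobp levels went the other way from the fitted value, at 120 CPM in FLASH 1x10Gy and 144 in CTRL. Only slide 4 held mice of both groups. FLASH 3x10Gy differed from CTRL there by -0.35 ± 0.14 for Mobp (adjusted p = 0.983), with 0.00998% of all genes called.

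In hippocampal neurons, Mobp stood at 137, 89.7 and 76.2 CPM in CONV 1x10Gy mice A, B and C and at 104, 110 and 147 CPM in FLASH 1x10Gy mice A, B and C. CTRL mice had 209, 137 and 84.8 CPM. The 3 groups overlapped. With slide in the fit, Mobp was higher in FLASH 1x10Gy than in CONV 1x10Gy by 0.55 ± 0.16 (adjusted p = 0.0136), where 22.3% of all tested genes were called. Without slide the difference was 0.28 (adjusted p = 0.714). Within slide 4 it was 0.21, with 1 mouse of each group, and within slide 5 it was 0.74, with 2 FLASH mice against 1 CONV mouse. The call was lost without FLASH 1x10Gy mouse C (0.40, adjusted p = 0.0927) and without CONV 1x10Gy mouse C (0.30, adjusted p = 0.587). In CA3 neurons alone Mobp differed by 0.13 with slide and by -0.06 without. The share of CA3 in the summed neuron counts also differed, at 36.3%, 22.8% and 9.77% in CONV 1x10Gy mice A, B and C and 28.5%, 34.3% and 33.7% in FLASH 1x10Gy mice A, B and C. With CA3 left out of the sums Mobp differed by 0.42 (adjusted p = 0.0799). Neuronal markers were higher in the same contrast, 8 of 9 with a median of 0.83, and their part was not tested.

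In the hippocampal remaining area, Mbp stood at 115, 63.8 and 59.3 CPM in the CONV 1x10Gy mice and at 72.0, 82.7 and 87.6 CPM in the FLASH 1x10Gy mice. CONV 1x10Gy mouse A exceeded every FLASH 1x10Gy mouse. The difference with slide was 0.36 ± 0.10 (adjusted p = 0.0493), where 4.64% of all genes were called. It was 0.08 without slide (adjusted p = 0.899), 0.18 within slide 4 and 0.52 within slide 5. Without CONV 1x10Gy mouse C it was 0.11, and the call was lost. Other mice mattered too: with each of the 15 mice left out in turn, Mbp was called in 9 refits. CA3 made up 35.3%, 53.7% and 48.6% of the summed counts in CONV 1x10Gy mice A, B and C. In FLASH 1x10Gy mice A, B and C it made up 25.2%, 20.6% and 38.2%. The part of these shares was not tested. Of the tested astrocyte markers 4 of 7 were higher and 1 lower in the same contrast, and their part was not tested.

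The largest of the 5 called differences were in hippocampal astrocytes, where 10 mice had libraries. Cnp stood at 69.8 and 47.4 CPM in CONV 1x10Gy mice B and C and at 85.4 to 160 CPM in the other 8 mice, so that the CONV 1x10Gy mice lay below all others. Cldn11 followed the same order, with 51.01 and 40.7 CPM in CONV 1x10Gy and 70.0 to 103 CPM elsewhere. For Mobp the values were 346 and 117 CPM in CONV 1x10Gy, 320 and 425 in FLASH 1x10Gy mice B and C, 417 and 509 in CTRL, 369 and 359 in FLASH 3x10Gy, and 330 and 205 in CONV 3x10Gy. Here CONV 1x10Gy mouse B lay among the other groups. All of its astrocyte counts came from CA3, whereas CA3 made up 24.1% to 48.3% of them in the other mice. The part of these shares was not tested. FLASH 1x10Gy exceeded CONV 1x10Gy with slide by 1.66 ± 0.28 for Mobp (adjusted p = 1.65e-04), 1.52 ± 0.25 for Cnp (adjusted p = 5.78e-05) and 1.03 ± 0.25 for Cldn11 (adjusted p = 0.0162), 3 members where 1.09% of all genes were called. Without slide, Cnp (1.38, adjusted p = 4.90e-05) and Cldn11 (0.96, adjusted p = 0.0115) were still called, against 2.21% of all genes, and Mobp was not (0.87, adjusted p = 0.513). Mbp differed by 0.86 with slide (adjusted p = 0.0688). Of the tested astrocyte markers 2 of 7 were higher in the same contrast, with a median of 0.65, and 0 of 9 neuronal markers were; their part was not tested. Of the 12 tested genes of the mature oligodendrocyte list, 2 were higher in astrocytes in this contrast (median 0.34 against 0.01 over all genes), 4 in the remaining area (median 0.17) and 0 in neurons (edgeR; 2 at an unadjusted p under 0.05). The plot of FLASH over CONV at 1x10Gy sets the compartments beside each other.

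**Figure D3:**
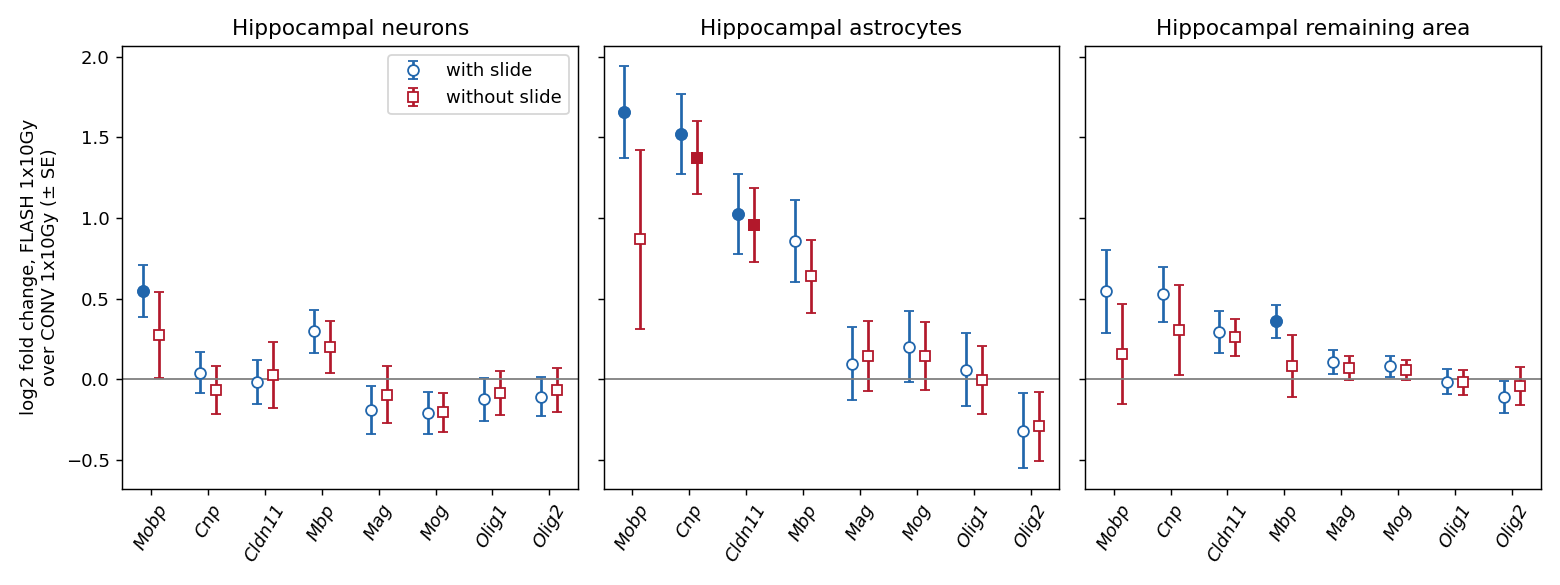
Log2 fold change of FLASH 1x10Gy over CONV 1x10Gy for the 8 tested members in hippocampal neurons, astrocytes and remaining area, with slide (circles) and without slide (squares) in the fit; bars are SE and filled symbols have an adjusted p under 0.05. With slide, 1 member was called in neurons, 3 in astrocytes and 1 in the remaining area, and without slide only Cnp and Cldn11 in astrocytes.

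The astrocyte contrast rested on few mice and was larger with CA3 alone than without CA3, a difference that was not tested. On slide 4 only CONV 1x10Gy mouse B had kept astrocyte libraries, so with slide in the fit the comparison came down to CONV 1x10Gy mouse C against FLASH 1x10Gy mice B and C on slide 5, and the 1x10Gy groups could not be set against CTRL. CONV 1x10Gy mouse B contributed a single library, from CA3. With CA3 left out, 9 mice and a single CONV 1x10Gy mouse remained, assumed to vary like the others, and no member was called: Mobp differed by 0.12 ± 0.28 (adjusted p = 0.907), Cnp by 0.74 (adjusted p = 0.263) and Cldn11 by 0.06. With CA3 alone, Mobp differed by 2.41 ± 0.31 (adjusted p = 2.81e-07), Cnp by 2.06, Cldn11 by 1.95 and Mbp by 1.80, where 1.07% of all genes were called. Without slide, CONV 1x10Gy was below CTRL in the hippocampal sums for Cnp, which fell by 1.53, Cldn11, which fell by 1.19, and Mbp, which fell by 1.04 (0.19% of all genes called), and all irradiated mice were below CTRL for Cnp, which fell by 0.74 (0.02%).

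In CA3 astrocytes, Mobp stood at 993 and 1040 CPM in CTRL mice A and B, 831 and 872 in FLASH 1x10Gy mice B and C, 895 and 850 in FLASH 3x10Gy mice A and B, 348 and 158 in CONV 1x10Gy mice B and C, and 744 and 352 in CONV 3x10Gy mice A and B. Among these 10 kept libraries every CONV mouse lay below every other mouse. The 5 libraries left out because fewer than 5% of genes were above their limit of quantification did not follow this order. As multiples of the mean negative probe, Mobp was 6.03 in the left-out library of CTRL mouse C, beside 23.4 and 23.7 in the other CTRL mice, and 22.4 and 38.2 in those of CONV 1x10Gy mouse A and CONV 3x10Gy mouse C. CTRL thus overlapped with both CONV groups, while the 6 FLASH libraries lay between 18.8 and 22.8. With all CA3 libraries, 4 members were called with slide (Mobp 2.02) and none without it (Mobp 0.98, adjusted p = 0.754). Background made up 93.2% and 92.7% of the counts in CONV 1x10Gy mice B and C, and 91.6% in CTRL mouse C; its part was not tested.

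**Figure D4:**
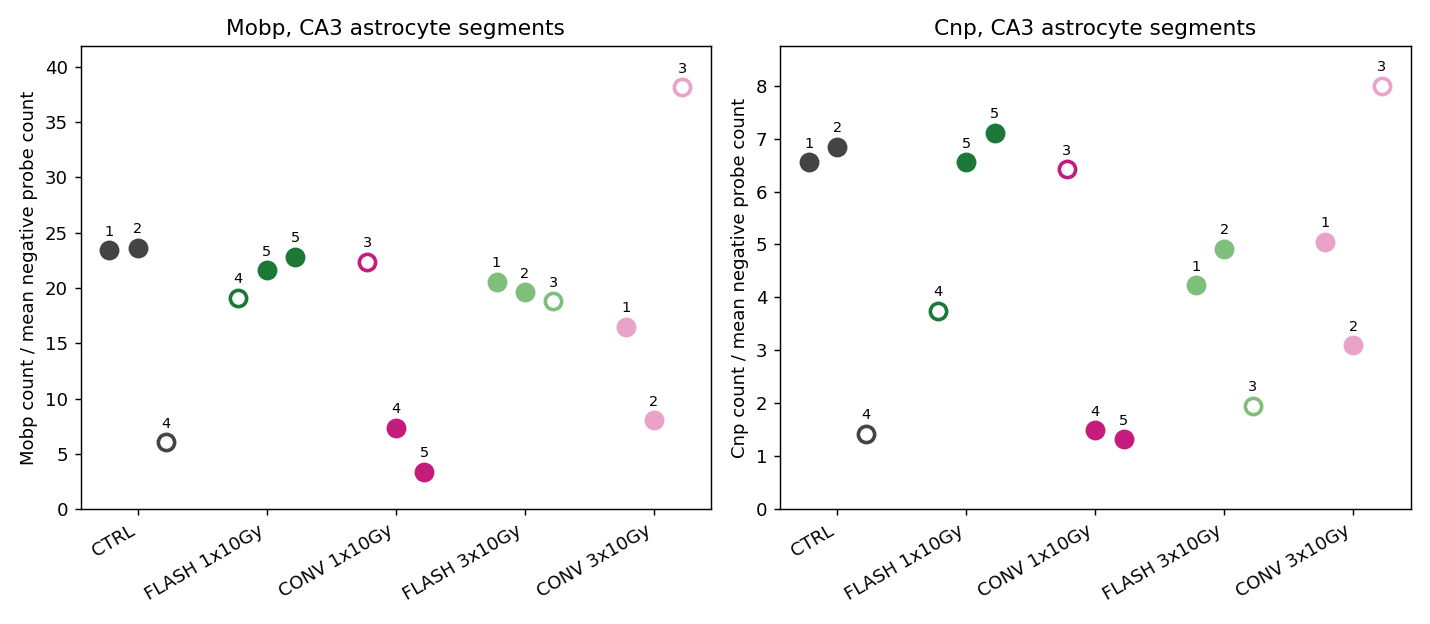
Mobp and Cnp in the CA3 astrocyte library of each of the 15 mice, as multiples of the mean negative probe count, by treatment; filled points are the 10 kept libraries, open points the 5 left out, and the number above each point is its slide. CTRL mouse C (slide 4) was as low as the kept CONV 1x10Gy libraries, and CONV 1x10Gy mouse A (slide 3) was near the higher CTRL mice.

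In CA3 and DG neurons, members were not called in any treatment contrast. In CA3 neurons FLASH 3x10Gy differed from CTRL by -0.53 ± 0.18 for Mobp (adjusted p = 0.768) and by -0.13 ± 0.16 for Mbp (adjusted p = 0.999), where 0% of all tested genes were called. In DG neurons Mbp differed by 0.40 ± 0.21 after FLASH 1x10Gy (adjusted p = 0.239; 5.65% of all genes called) and by 0.27 ± 0.16 after FLASH 3x10Gy (adjusted p = 0.806; 0%). The smallest adjusted p in these subregions was 0.0554, for Mog in DG neurons of FLASH 1x10Gy against CONV 1x10Gy, which stood at -0.57 ± 0.20 (8.64% of all genes called). The effects against CTRL also showed no called difference between hippocampal and cortical neurons in any of 32 interaction tests (edgeR, 15 mice; 1 at an unadjusted p under 0.05). That was Mog after CONV 1x10Gy, at 0.64 ± 0.24 (adjusted p = 0.708). The SE of Mobp in these interaction tests was 0.57 for FLASH 1x10Gy and 0.64 for CONV 1x10Gy. The share of all genes called is not given for them. Whether the lack of calls was particular to the members was not tested.

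In the cortex no member was called in neurons, in the remaining area or in vessels, with or without slide. The share of all genes called is given below only for FLASH 1x10Gy against CONV 1x10Gy in neurons. Whether the lack of calls in the cortex was particular to the members was not tested. Mobp in the cortical remaining area stood at 55.1, 74.9 and 96.3 CPM in the CONV 1x10Gy mice, 162, 142 and 204 CPM in FLASH 1x10Gy, 201, 92.0 and 176 CPM in CTRL, 152, 125 and 104 CPM in FLASH 3x10Gy, and 242, 151 and 112 CPM in CONV 3x10Gy. The CONV 1x10Gy and FLASH 1x10Gy mice did not overlap, whereas CTRL overlapped with both. With slide, FLASH 1x10Gy exceeded CONV 1x10Gy by 0.90 (adjusted p = 0.168), and CONV 1x10Gy differed from CTRL by -0.99. In cortical neurons the same gene stood at 31.99, 77.8 and 111 CPM in CONV 1x10Gy and at 149, 68.4 and 104 CPM in FLASH 1x10Gy, which overlapped. The difference was 0.15 ± 0.21 with slide (adjusted p = 0.824), where 0.0599% of all genes were called, 0.0299% in each direction. Paired regions of interest of the same cortex differed in neuronal Mobp by a median of 0.55 on the log2 scale (14 mice, largest 1.01), beside a standard deviation of 0.68 among the mouse means.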

How the data were processed

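Probe counts were deposited by the authors per library as de-duplicated whole-number counts, made from the reads with the GeoMx NGS Pipeline 2.0.0, and were not normalized. Libraries were kept with no fewer than 1000 raw reads, 80% trimmed and stitched, 75% aligned, 50% saturation, a geometric mean of 1 over the negative probes, and 5% of genes past the limit of quantification. The study also set limits on nuclei and segment area, which were not applied here. A gene was tested if it passed that limit in 5% or more of these libraries. Rows that name no gene held 0.899% of counts (negative probes) and probes absent from the probe list 0.00869%, and both stayed out of library sizes. Counts were summed per mouse and compartment and fitted with edgeR 4.0.16 in R 4.3.3 (TMM, robust quasi-likelihood, Benjamini-Hochberg over all 10020 genes). Treatment fits held slide as a factor. Fits between segments or regions held mouse as a block, since the labels give the animal. CA3 and CA1 neurons of a mouse deviated from their group means together with a median correlation of 0.151 (over 0.1 in 9 of 15 mice). SE is the absolute log2 fold change divided by the square root of F. Levels are CPM of the deposited counts, given by range and median, because depth and background differ widely and intervals would cover counting error only. DESeq2 1.42.0 and lmerTest 3.1.3 served as alternatives, and the fits were tested on simulated data. Mouse letters were assigned here. The named genes are the 9 members, up to 4 genes with the smallest p per list, and the 10 genes most like the members; 1 gene that this rule names is not reported here. Members and lists were chosen with earlier results of these data known.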

Additional observations from a re-analysis of the deposited data

Results flagged for a closer look

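Outlying values were sought in sets, each holding a single member's values in the 4 to 10 libraries of a segment kind and region. Chance meets Dixon's criterion in about 5% of independent sets, but sets of different members shared libraries. Among 45 such sets, 4 values of members stood apart from the rest of their set by this criterion. They were Mobp in DG astrocytes of CTRL mouse A (224.4 CPM), Mog in CA1 astrocytes of CONV 1x10Gy mouse C (38.57 CPM), Olig1 in CA1 astrocytes of CTRL mouse A (36.69 CPM) and Olig1 in vessels of CONV 1x10Gy mouse B (0 CPM).

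Libraries that entered no comparison were read as well. Mobp was above the limit of quantification in 34 of the 60 left-out libraries, and 32 member values in left-out libraries of irradiated mice were above that limit and exceeded every CTRL library of the same segment and region. They made up 43.8% of the 73 member values above the limit in 49 such libraries (7.26% of 441 values), beside 45.9% over all tested genes (3.24% of all values), so the share was close to that of genes at large. They are given as multiples of the mean negative probe, and no test was made on them. In CA3 astrocytes, CONV 3x10Gy mouse C had Mobp at 38.17, Mbp at 11.33, Cnp at 8, Mog at 3.5 and Olig1 at 3.167, and CONV 1x10Gy mouse A had Mog at 3.085. In CA1 astrocytes, FLASH 1x10Gy mouse C had Mobp at 3.326 and FLASH 1x10Gy mouse A had Olig2 at 3.043.

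In DG astrocytes, Olig2 was 4.864 in CONV 1x10Gy mouse B and 3.143 in CONV 3x10Gy mouse C. In SO astrocytes, FLASH 1x10Gy mouse B had Mobp at 9.813, Mbp at 4.737, Cnp at 3.722 and Cldn11 at 3.271, and FLASH 1x10Gy mouse A had Olig1 at 3.644 and Mbp at 3.001. In the remaining area, FLASH 1x10Gy mouse B had Cnp at 1.829, Cldn11 at 1.503 and Mog at 1.332 in CA3, CONV 1x10Gy mouse C had Olig2 at 5.986 in DG, and CONV 3x10Gy mouse C had Mobp at 7.618, Cnp at 2.498 and Olig2 at 2.373 in SO.

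In vessels, Mobp was 7.917 in CONV 3x10Gy mouse A and 5.24 in FLASH 1x10Gy mouse A. Mbp was 4.079 in CONV 1x10Gy mouse C and 2.815 in CONV 3x10Gy mouse A. FLASH 1x10Gy mouse A had Cldn11 at 3.943 and Cnp at 3.493. Olig2 was 5.197 in FLASH 1x10Gy mouse B, 3.199 in FLASH 1x10Gy mouse C and 3.173 in CONV 1x10Gy mouse A.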

How the results depend on the processing

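Counts of members called stayed within 1.5 times under 599 alternatives, fell under 36 and rose under 7, and the cause was not tested. Many of these counts were 0 in the main fit and stayed at 0. Of the further results checked, 396 stayed the same, 82 weakened and 6 reversed. For FLASH 1x10Gy against CONV 1x10Gy, the 1 call in hippocampal neurons became 0 without slide, in the mixed model, with CA3 alone, without CA3 and with all libraries and no slide, and Mobp reversed to -0.0624 with CA3 alone and no slide. The 3 calls in astrocytes became 0 without CA3, with or without slide, and with all libraries or all CA3 libraries and no slide. The 1 call in the remaining area became 0 without slide, with DESeq2 or its size factors, without the gene filter, with negative probes subtracted, without SO, without regions holding no stained segment and with CA3 alone, 2 with all libraries and 3 without CA3. In the cortical remaining area 0 became 1 with DESeq2. The fits of CA3 alone, without CA3, and of all libraries without slide were chosen after seeing the data.

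Between regions, calls for CA3 over CA1 neurons went from 7 to 4 with DESeq2 and to 4 with negative probes subtracted, for cortex over hippocampus from 7 to 4 with that subtraction, for DG over CA1 from 3 to 1 with DESeq2, and for SO over CA1 astrocytes from 1 to 0 with DESeq2 and to 4 with all libraries. Without the replicate block, calls went from 3 to 1 for DG over CA1, 1 to 0 for SO over CA1 astrocytes, 4 to 2 for SO over CA1 remaining area, 6 to 3 for CA3 over CA1 astrocytes and 5 to 3 for the cortical remaining area against neurons. Treatments could not be paired by mouse because each group held different mice. Mice of different groups share slides, and slide was in the treatment fits.

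Between segments, subtraction took the cortical remaining area against neurons from 5 to 8 calls (median of all genes -1.001), the remaining area against vessels from 0 to 1 (2 with all libraries) and astrocytes against neurons without CA3 from 6 to 2, and reversed Cldn11 there (-0.32) and Mag in the hippocampal remaining area against neurons (-1.89). Without the gene filter Mbp reversed in the latter (-0.0148) and Olig2 in the cortex (-0.0805).

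With each mouse left out, calls ranged from 3 to 6 for CA3 over CA1 astrocytes (3 without FLASH 3x10Gy mouse B) and stayed at 1 for SO over CA1. For FLASH 1x10Gy against CONV 1x10Gy in hippocampal astrocytes they ranged from 2 to 4 over 9 refits. Cnp and Mobp were called in all 9 of these and Cldn11 in 6. The contrast could not be refitted with slide without CONV 1x10Gy mouse C. With slide, that was the only CONV 1x10Gy mouse set against FLASH 1x10Gy mice, so the difference rested on it. None of the 9 refits left it out. In hippocampal neurons the calls of this contrast ranged from 0 to 2 (0 without FLASH 1x10Gy or CONV 1x10Gy mouse C). In the hippocampal remaining area they ranged from 0 to 2 (0 without CTRL mouse A, FLASH 1x10Gy or CONV 1x10Gy mouse C, or CONV 3x10Gy mouse A or B). In the cortical remaining area they ranged from 0 to 3 (3 without CTRL or FLASH 3x10Gy mouse B, 2 without CTRL mouse A). Against CTRL they ranged from 0 to 1 for FLASH 1x10Gy in cortical neurons (1 without CTRL mouse A), for FLASH 1x10Gy in hippocampal neurons (1 without CTRL mouse A or CONV 3x10Gy mouse C) and for CONV 3x10Gy in astrocytes (1 without FLASH 1x10Gy mouse B or C), and the other 26 results stayed at 0. A group left with a lone mouse was assumed to vary like the others.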
